A study of Mus musculus with 6 samples.

Results

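Macrophages clear dying cells by efferocytosis, and the expression of 10 genes of this process was examined in liver F4/80-positive cells: the TAM receptor kinases *Axl*, *Mertk* and *Tyro3*, the bridging molecules *Gas6*, *Pros1* and *Mfge8*, the integrin chains *Itgav* and *Itgb3*, and the engulfment adaptors *Elmo1* and *Dock1*. The genes were chosen by name for their role in uptake of apoptotic cells, with earlier results of these data known. All 10 were found once each among the 49315 Ensembl genes counted by RNA sequencing. The cells came from 3 WT mice and 3 Lpcat3 KOMac mice fed a high-fat diet (HFD, 60% fat) for 16 weeks, with 1 library per mouse. The sex of each mouse is not given. Both groups carried floxed *Lpcat3* alleles on both chromosomes on a C57BL/6N background. The Lpcat3 KOMac mice also carried 1 copy of Cre recombinase in the *LysM* (*Lyz2*) locus, which is active in myeloid cells, whereas their WT littermates had no Cre. LPCAT3 is an enzyme that remodels the acyl chains of membrane phospholipids, and the comparison asks whether its loss in myeloid cells alters their transcriptome.

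An apoptotic cell exposes phosphatidylserine on its outer membrane. GAS6 and protein S (the product of *Pros1*) bind this lipid at one end and a TAM receptor at the other, and MFGE8 links it in the same way to integrins that contain the alpha v chain. The bound corpse is then drawn in by actin remodeling, which the ELMO1-DOCK1 complex drives by activating the small GTPase RAC1. MERTK and AXL are known as the TAM receptors of tissue macrophages, Kupffer cells of the liver among them, whereas TYRO3 is best known from the nervous system.

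Total counts lay between 44954224 and 71392812 per library. *Lpcat3* measured 85, 66.2 and 61.2 CPM (counts relative to library size, scaled for composition by the TMM method) in the WT animals, given here and throughout in the order of mice 1 to 3, and 19.5, 33.3 and 19.4 CPM in the Lpcat3 KOMac animals. Counts in the Lpcat3 KOMac libraries were 1135, 1727 and 912. *Lpcat3* shares 334 exonic bases with the opposite-strand gene *Emg1*, which had up to 2675 counts in a library, and reads from both strands cannot be told apart with this kit. The 10 Kupffer cell markers examined, *Clec4f*, *Cd5l* and *Vsig4* among them, were present in every library and summed to between 31600 and 42500 CPM in WT and between 24900 and 33400 CPM in Lpcat3 KOMac cells. The preparations were not pure. The 8 hepatocyte markers summed to 20200 CPM in WT mouse 1 and 13100 CPM in Lpcat3 KOMac mouse 2, against 1850 to 4930 CPM in the other 4 libraries. Markers of sinusoidal endothelial cells were present in every library too. In such bulk samples, fewer cells of a type and less RNA per cell cannot be told apart.

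Promoter sequences of 4 members are shown, *Axl* and *Mertk* as the most abundant receptors and *Gas6* and *Mfge8* as ligands whose levels varied most from mouse to mouse. Each is the 250 bases before the RefSeq start of the gene in build GRCm38.p6, 5′ to 3′ along the gene's strand. Capitals mark the GC box GGGCGG on either strand, a common element of promoters that bind SP1-type factors. The windows are chr7:25788734-25788983 (minus strand) for *Axl*, chr2:128698665-128698914 (plus strand) for *Mertk*, chr8:13494536-13494785 (minus strand) for *Gas6* and chr7:79149061-79149310 (minus strand) for *Mfge8*.
Axl: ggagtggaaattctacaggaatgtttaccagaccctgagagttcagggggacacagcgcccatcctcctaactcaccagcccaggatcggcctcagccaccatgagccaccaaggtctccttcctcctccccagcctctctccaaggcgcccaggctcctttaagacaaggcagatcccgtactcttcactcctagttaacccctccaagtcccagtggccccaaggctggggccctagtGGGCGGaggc
Mertk: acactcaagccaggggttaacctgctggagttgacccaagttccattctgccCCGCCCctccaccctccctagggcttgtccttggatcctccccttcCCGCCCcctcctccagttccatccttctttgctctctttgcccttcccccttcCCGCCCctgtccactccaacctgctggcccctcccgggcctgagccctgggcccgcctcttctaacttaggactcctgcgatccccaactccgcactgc
Gas6: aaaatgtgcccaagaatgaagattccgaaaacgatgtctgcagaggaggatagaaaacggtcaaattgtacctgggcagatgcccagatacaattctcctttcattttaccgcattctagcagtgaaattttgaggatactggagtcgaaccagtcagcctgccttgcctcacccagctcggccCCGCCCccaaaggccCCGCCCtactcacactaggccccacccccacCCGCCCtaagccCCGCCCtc
Mfge8: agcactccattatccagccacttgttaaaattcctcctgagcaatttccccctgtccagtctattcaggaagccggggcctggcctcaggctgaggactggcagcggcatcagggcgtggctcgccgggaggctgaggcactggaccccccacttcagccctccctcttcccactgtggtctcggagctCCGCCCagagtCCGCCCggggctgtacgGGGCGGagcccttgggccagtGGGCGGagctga

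The *Axl* window held 1 GC box, *Mertk* 3, and *Gas6* and *Mfge8* 4 each, and none of the 4 held the TATA box TATAAA. Of the 10 members, 9 had at least 1 window in the RefSeq table (*Itgb3* was not among them). Of their 10 windows, 8 held at least 1 GC box, while 32.7% of all 32851 windows of the same length did. The GC content was 60% in the window of *Axl*, 63.6% in *Mertk*, 54.8% in *Gas6* and 65.2% in *Mfge8*. The median over all windows was 52.4%, and the part of GC content in the matches was not tested. A TATA box was found among the members in 1 window of *Elmo1* and in 12.4% of all windows. The 8-base PU.1-type ETS site GAGGAAGT, a motif of macrophage promoters, was found among the members in *Itgav* and in 2.44% of all windows. The strict DR4 element of liver X receptors, a pair of AGGTCA copies spaced by 4 bases, matched no member and 0.0152% of all windows. With only 5 matches in 32851 windows, its absence from the members says nothing about their control by liver X receptors. All motifs were searched on both strands, and no motif contains another. A match describes letters, not a binding site.

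Levels of different genes were set against each other per length, as FPKM (TMM-scaled CPM per kilobase of exon). The length is that of all annotated exons and is the same in every library. Agreement between libraries therefore does not test it, here or in the ratios per length below. The order over the 6 libraries was *Axl*, *Mertk*, *Pros1*, *Itgav*, *Gas6*, *Elmo1*, *Dock1*, *Mfge8*, *Itgb3* and *Tyro3*. *Axl* had a mean of 347 FPKM (SD 29.6, 6 libraries) and ranked 116 among the 16134 genes tested, whereas *Mertk* had a mean of 156 FPKM (SD 13.1) and ranked 307. Protein S mRNA followed at 33.7 FPKM (SD 2.22), above *Gas6* at 11.1 FPKM (SD 2.92). The ranges over libraries did not touch between *Axl* and *Mertk*, *Mertk* and *Pros1*, *Pros1* and *Itgav*, *Dock1* and *Mfge8*, or *Itgb3* and *Tyro3*. They overlapped between *Itgav* and *Gas6* (13 to 22.6 against 7.82 to 15.6 FPKM) and between *Gas6* and *Elmo1* (6.62 to 10 FPKM), where the first gene was higher in 5 of 6 libraries. *Elmo1* and *Dock1*, and *Mfge8* and *Itgb3*, also overlapped in range, but *Elmo1* was above *Dock1* and *Mfge8* above *Itgb3* in 6 of 6 libraries. *Tyro3* stood apart at a mean of 0.0291 FPKM, rank 16073.

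**Figure D1:**
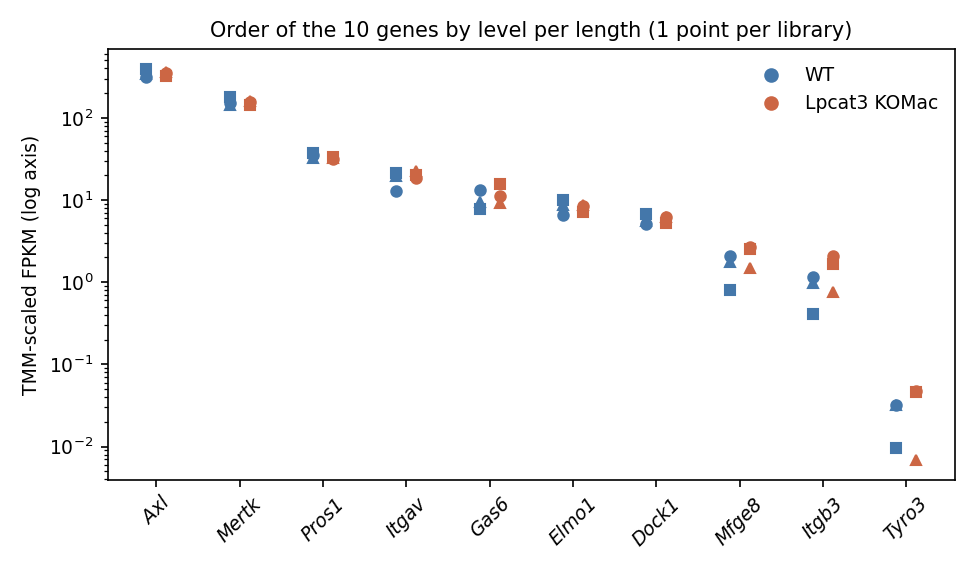
TMM-scaled FPKM (log axis) of the 10 genes, ordered by mean, with 1 point per library (WT left, Lpcat3 KOMac right; circle, square and triangle are mice 1, 2 and 3). *Axl* and *Mertk* lie between 144 and 395 FPKM in every library, and *Tyro3* is at most 0.0472 FPKM.

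In the comparison of genotypes, 0 of the 10 genes had an adjusted p-value under 0.05 (edgeR quasi-likelihood, Benjamini-Hochberg adjusted), against 0% of all 16134 genes tested. At the unadjusted threshold of 0.05 none passed in edgeR either, which 2.64% of all genes had (1.57% lower and 1.07% higher in Lpcat3 KOMac cells), or in DESeq2 or limma-voom. DESeq2 called 0.093% of all genes at an adjusted p-value under 0.05. In each of the 10 genes the WT and Lpcat3 KOMac mice overlapped in CPM, where 7.49% of all genes tested did not overlap. The median log2 fold change (Lpcat3 KOMac against WT) of the 10 genes was 0.11, beside -0.04 for all genes tested, and they ranged from -0.10 for *Pros1* to 0.83 for *Itgb3*. With the 2 libraries richest in hepatocyte transcripts left out, a choice made after seeing the data, 0 of the 9 members tested had an adjusted p-value under 0.05. In that fit 0 of all 16126 genes tested had one. The smallest p-value that exact permutation of 3 against 3 mice allows is 0.1.

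**Figure D2:**
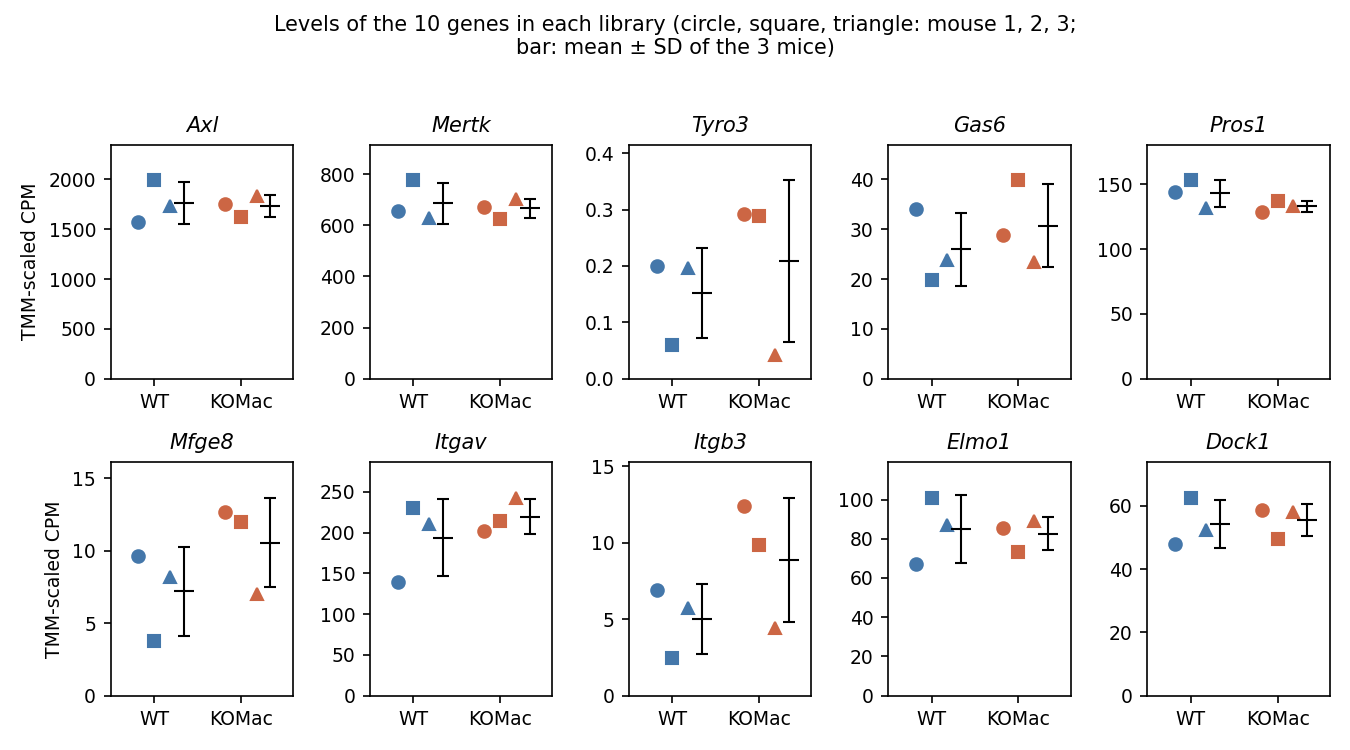
TMM-scaled CPM of each of the 10 genes in WT and Lpcat3 KOMac cells, with 1 symbol per mouse (circle, square and triangle are mice 1, 2 and 3) and the mean ± SD of 3 mice beside them. The genotypes overlap in all 10 panels, and the spread is widest relative to the mean in *Tyro3*, *Itgb3* and *Mfge8*.

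*Axl* (ENSMUSG00000002602, chromosome 7 of GRCm38, 25757273 to 25788705, minus strand), a receptor kinase for GAS6, measured 1570, 1990 and 1730 CPM in the WT mice and 1750, 1620 and 1830 CPM in the Lpcat3 KOMac mice. All Lpcat3 KOMac values lay inside the WT range. The means were 1760 ± 208 CPM in WT and 1730 ± 107 CPM in Lpcat3 KOMac cells (SD, n = 3 each). The log2 fold change was -0.02 (standard error 0.12), and its 95% interval of -0.31 to 0.26 corresponds to 0.805 to 1.2 times the WT level.

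*Mertk* (ENSMUSG00000014361, chromosome 2, 128698956 to 128802894, plus strand), a TAM receptor for both GAS6 and protein S, measured 655, 776 and 627 CPM in the WT mice and 672, 625 and 702 CPM in the Lpcat3 KOMac mice. WT mouse 2 was the highest library, and the lowest were Lpcat3 KOMac mouse 2 and WT mouse 3, nearly level with each other. The means were 686 ± 79.4 and 666 ± 38.7 CPM (SD, n = 3 each). The log2 fold change was -0.04 (standard error 0.11, 95% interval -0.32 to 0.24). The ratio of *Axl* to *Mertk* per length was 2.07, 2.2 and 2.38 in WT mice and 2.24, 2.23 and 2.25 in Lpcat3 KOMac mice (two-sided exact permutation test, p = 0.7).

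*Tyro3* (ENSMUSG00000027298, chromosome 2, 119797733 to 119818104, plus strand), the remaining TAM receptor, had 13, 3 and 9 counts in WT mice and 17, 15 and 2 counts in Lpcat3 KOMac mice. WT mouse 2 and Lpcat3 KOMac mouse 3 were at or under 3 counts, which is the floor of detection taken here and equals 0.0462 to 0.0656 CPM depending on the library. At 0.152 ± 0.08 and 0.208 ± 0.143 CPM (SD, n = 3 each), no difference was detectable at this depth, and the log2 fold change of 0.45 had a 95% interval of -1.45 to 2.35.

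Among the bridging molecules, *Pros1* (ENSMUSG00000022912, chromosome 16, 62854307 to 62929346, plus strand), which encodes protein S, was the most even of all 10 genes. It measured 144, 153 and 132 CPM in the WT mice and 129, 137 and 133 CPM in the Lpcat3 KOMac mice. The log2 fold change was -0.10 (standard error 0.08, 95% interval -0.31 to 0.11). Protein S is also a product of hepatocytes. *Pros1* was highest in WT mouse 2, followed by the 2 libraries richest in hepatocyte markers, WT mouse 1 and Lpcat3 KOMac mouse 2, and the part of hepatocytes in its level was not tested.

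*Gas6* (ENSMUSG00000031451, chromosome 8, 13465374 to 13494490, minus strand), the ligand of all 3 TAM receptors, measured 34.1, 19.9 and 23.9 CPM in the WT mice and 28.8, 39.8 and 23.5 CPM in the Lpcat3 KOMac mice. The highest libraries were Lpcat3 KOMac mouse 2 and WT mouse 1, the same 2 that were richest in hepatocyte markers, and 8 of 10 stellate cell markers were also highest in one of these 2 libraries. The means were 26 ± 7.32 and 30.7 ± 8.28 CPM (SD, n = 3 each), and the log2 fold change was 0.24 (standard error 0.27, 95% interval -0.44 to 0.92). With the hepatocyte markers as a covariate it was 0.10 (standard error 0.16), without Lpcat3 KOMac mouse 2 it was 0.02, and without WT mouse 1 it was 0.49. Without both of these mice it was 0.26 (standard error 0.16). The part of other cell types in this was not tested. *Gas6* shares 34 exonic bases with *Tmem255b* on the other strand, which had at most 4 counts in any library.

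*Mfge8* (ENSMUSG00000030605, chromosome 7, 79133768 to 79149060, minus strand), the bridge to alpha v integrins, measured 9.67, 3.77 and 8.2 CPM in the WT mice and 12.7, 12 and 7.01 CPM in the Lpcat3 KOMac mice. WT mouse 2 was the lowest library, and Lpcat3 KOMac mouse 3 lay below 2 of the WT mice. The means were 7.21 ± 3.07 and 10.6 ± 3.1 CPM (SD, n = 3 each). On the log2 scale the fold change was 0.55 (standard error 0.41, 95% interval -0.46 to 1.56). Without WT mouse 2 it was 0.24, and without WT mouse 1 it was 0.82.

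*Itgb3* (ENSMUSG00000020689, chromosome 11, 104608000 to 104670476, plus strand), the beta 3 chain that pairs with alpha v, measured 6.9, 2.44 and 5.71 CPM in the WT mice and 12.4, 9.84 and 4.44 CPM in the Lpcat3 KOMac mice. Its pattern over the 6 libraries was that of *Mfge8*, with WT mouse 2 lowest and Lpcat3 KOMac mice 1 and 2 highest. The means were 5.01 ± 2.31 and 8.9 ± 4.07 CPM (SD, n = 3 each). The log2 fold change of 0.83 (standard error 0.52) had a 95% interval from -0.46 to 2.11, so that both a lower level and a more than 4-fold higher level are inside it (upper bound 4.33 times WT). It was 0.50 without WT mouse 2 and 1.17 without Lpcat3 KOMac mouse 3.

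Most markers of sinusoidal endothelial cells moved with *Mfge8* and *Itgb3*. Of the 10 markers, 9 were lowest in WT mouse 2 and 10 were highest in Lpcat3 KOMac mouse 1 or 2. The exception in WT mouse 2 was *Stab2*, the marker of highest CPM, with a log2 fold change of 0.02. It measured 371, 489 and 482 CPM in the WT mice and 501, 385 and 477 CPM in the Lpcat3 KOMac mice. None of the 10 markers was at 0 in any library. Their sum was 923 to 1140 CPM in WT and 1060 to 1580 CPM in Lpcat3 KOMac cells, and their median log2 fold change was 0.73. Among them, and picked after its values were seen, the endothelial receptor kinase gene *Kdr* measured 68.6, 62.3 and 95.7 CPM in the WT mice and 169, 131 and 91.5 CPM in the Lpcat3 KOMac mice. *Itgb3* is also a platelet gene, and the 8 platelet and megakaryocyte markers summed to 12.9 to 28.9 CPM in WT and 17.9 to 23.9 CPM in Lpcat3 KOMac cells, with *Gp1bb* and *Gp6* at 0 in some libraries. Most of that sum was *Pf4*, at 16.5, 11.1 and 26.2 CPM in the WT mice and 21.1, 20.3 and 12.6 CPM in the Lpcat3 KOMac mice. The 5 platelet markers tested had positive log2 fold changes between 0.01 and 0.88, with a median of 0.64. Of the 8 platelet markers, 2 were lowest in WT mouse 2 and 1 was highest in Lpcat3 KOMac mouse 1 or 2. Stellate cell markers and markers of recruited macrophages and monocytes were each lowest in WT mouse 2 for 8 of 10 genes, with median log2 fold changes of 0.27 and 0.53. In Lpcat3 KOMac mouse 1 or 2, 7 of the 10 stellate cell markers and 5 of the 10 recruited macrophage and monocyte markers were highest. The part of other cell types in the levels of *Mfge8* and *Itgb3* was not tested.

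*Itgav* (ENSMUSG00000027087, chromosome 2, 83724397 to 83806916, plus strand), the alpha v chain, measured 140, 230 and 211 CPM in the WT mice and 202, 214 and 243 CPM in the Lpcat3 KOMac mice. WT mouse 1 was the lowest library and the other 5 lay between 202 and 243 CPM. The means were 193 ± 47.5 and 220 ± 20.8 CPM (SD, n = 3 each). The log2 fold change was 0.18 (standard error 0.20, 95% interval -0.31 to 0.68), and without WT mouse 1 it was 0.00. Without the 2 libraries richest in hepatocyte transcripts it was 0.01 (standard error 0.12). With the hepatocyte markers as a covariate it was 0.33 (standard error 0.10, adjusted p = 0.476, edgeR quasi-likelihood, Benjamini-Hochberg adjusted). This was the only 1 of the 10 genes with an unadjusted p-value under 0.05 in that fit, where 9.41% of all genes had one. The antisense gene *Gm13684* shares 634 exonic bases with *Itgav* and had at most 27 counts.

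The engulfment adaptors overlapped between genotypes. *Elmo1* (ENSMUSG00000041112, chromosome 13, 20090596 to 20606528, plus strand) measured 66.9, 101 and 87 CPM in the WT mice and 85.4, 73.2 and 89.1 CPM in the Lpcat3 KOMac mice, a log2 fold change of -0.04 (standard error 0.17, 95% interval -0.47 to 0.38). *Dock1* (ENSMUSG00000058325, chromosome 7, 134670654 to 135173639, plus strand), which encodes the RAC1 exchange factor DOCK180, measured 47.9, 62.6 and 52.3 CPM in the WT mice and 58.7, 49.6 and 58.1 CPM in the Lpcat3 KOMac mice, a log2 fold change of 0.03 (standard error 0.13, 95% interval -0.29 to 0.36). In both genes WT mouse 1 was lowest and WT mouse 2 highest, so that the Lpcat3 KOMac mice lay inside the WT range. The ratio of *Elmo1* to *Dock1* per length was 1.44 ± 0.131 in WT and 1.37 ± 0.0385 in Lpcat3 KOMac cells (SD, n = 3 each; two-sided exact permutation test, p = 0.5).

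**Figure D3:**
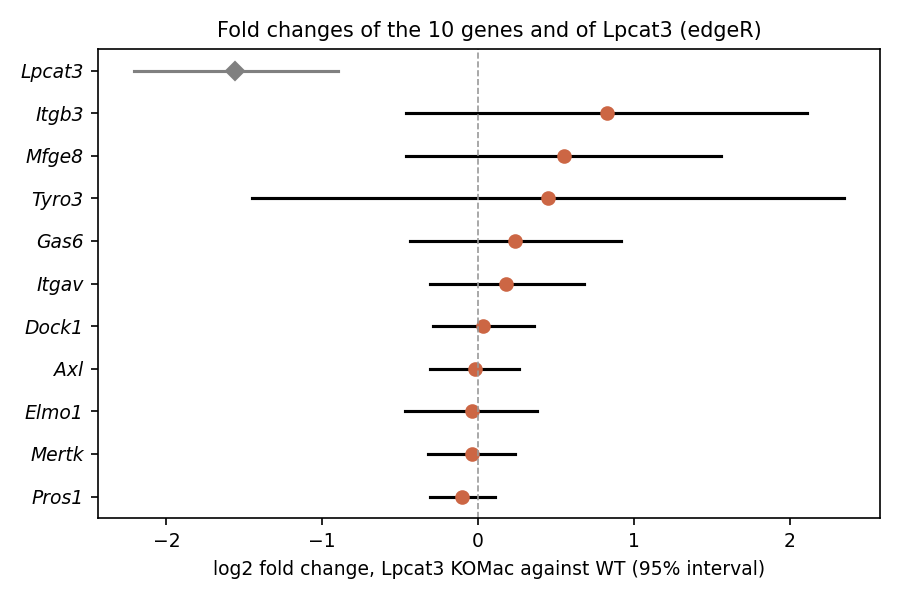
Log2 fold change of the 10 genes in Lpcat3 KOMac against WT cells with its 95% interval from edgeR, and of *Lpcat3* in grey. All 10 intervals cross 0, narrowly for *Pros1* (-0.31 to 0.11) and widely for *Tyro3* (-1.45 to 2.35), while that of *Lpcat3* runs from -2.21 to -0.90.

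Over the 6 libraries the 10 genes fell into different profiles. The likeness of 2 genes was measured as the root-mean-square (RMS) difference of their log2 CPM (0.5 CPM added) after the mean of each was removed. This is a description of 6 libraries that differ in purity and depth. *Axl* and *Mertk* differed by an RMS of 0.0589, *Axl* and *Dock1* by 0.0506, and *Elmo1* and *Dock1* by 0.0872, where the spread of these genes themselves was 0.107 to 0.194. These 4 genes were highest in WT mouse 2, as was the mean of the Kupffer cell markers, at 0.55 log2 units above its own mean. *Mfge8* and *Itgb3* differed by an RMS of 0.193 with spreads of 0.544 and 0.699, and both were lowest in WT mouse 2. *Gas6* differed from *Axl* by 0.436 and from *Mfge8* by 0.331.

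**Figure D4:**
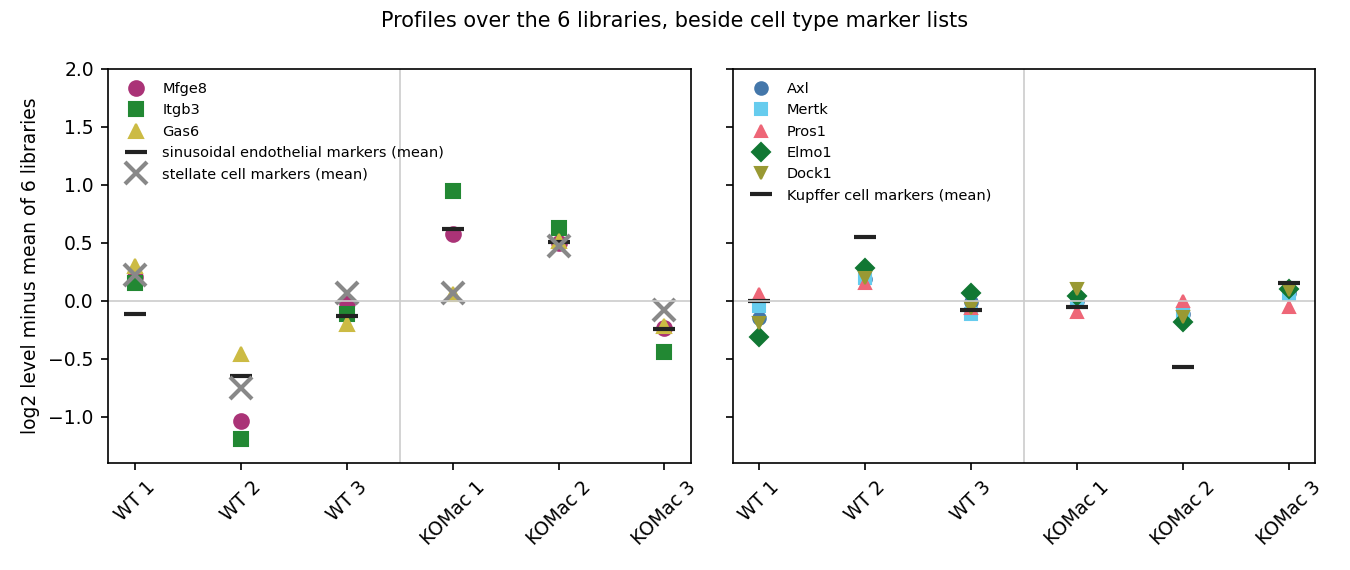
Log2 level minus the mean of the 6 libraries, for *Mfge8*, *Itgb3* and *Gas6* with the mean of sinusoidal endothelial and of stellate cell markers (left), and for *Axl*, *Mertk*, *Pros1*, *Elmo1* and *Dock1* with the mean of Kupffer cell markers (right). In WT mouse 2 *Mfge8* and *Itgb3* are at -1.04 and -1.19 and the endothelial markers at -0.65, whereas *Axl*, *Mertk* and *Elmo1* are at 0.19, 0.20 and 0.28.

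Among all genes tested, those nearest in pattern to *Axl* were *Dnajc16* (RMS difference 0.00804), *Mbtps2* (0.0183) and *Qrsl1* (0.0219). *Dnajc16* measured 35.1, 44.3 and 38.6 CPM in the WT mice and 38.6, 36.4 and 40.9 CPM in the Lpcat3 KOMac mice. Those nearest to *Mertk* were *Abi3* (0.0144), *Rbsn* (0.0199) and *Tti1* (0.0222). Those nearest to *Gas6* were *Nim1k* (0.0608), *Dpf3* (0.0745) and *1700001L05Rik* (0.0807), 3 genes at 1.31 CPM or less. At such low levels the added 0.5 CPM narrows the spread, so their likeness to *Gas6* depends on it. Before that addition *Nim1k* ran from 0.339 to 1.22 CPM and *Dpf3* from 0.0998 to 0.579 CPM, beside 19.9 to 39.8 CPM for *Gas6*.

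A further 84 genes of apoptotic cell uptake were examined in 7 lists, and 79 had enough counts for the test. None passed the adjusted threshold in edgeR, and 3 passed at an unadjusted p-value of 0.05, all lower in Lpcat3 KOMac cells, where 1.57% of all genes were lower at that threshold. The 3 were *C1qa*, *C1qb* and *C1qc*, which encode the chains of complement C1q, a bridging molecule that coats dying cells. *C1qa* measured 3080, 3860 and 3370 CPM in the WT mice and 2760, 2610 and 2970 CPM in the Lpcat3 KOMac mice. *C1qb* measured 3060, 3690 and 3340 CPM in the WT mice and 2750, 2780 and 2920 CPM in the Lpcat3 KOMac mice. *C1qc* measured 3090, 3800 and 3390 CPM in the WT mice and 2750, 2660 and 3020 CPM in the Lpcat3 KOMac mice. For each chain, every Lpcat3 KOMac mouse lay below every WT mouse, as in 5.2% of all genes tested. The log2 fold changes were -0.31, -0.26 and -0.29 (standard errors 0.12, 0.10 and 0.11), each with an adjusted p of 1 (edgeR quasi-likelihood, Benjamini-Hochberg adjusted). All 10 Kupffer cell markers also had negative log2 fold changes, with a median of -0.23, and their part in the C1q values was not tested. The number of the uptake genes at an unadjusted p-value under 0.05 was 0 without WT mouse 2, without Lpcat3 KOMac mouse 1, without Lpcat3 KOMac mouse 2, without robust dispersion and with a replicate block. It was 1 with total counts as the only scaling or with a length offset, and 2 without Lpcat3 KOMac mouse 3. It was 4 with DESeq2 or with its size factors in edgeR, 5 of 80 without WT mouse 3 and 9 of 79 without WT mouse 1. The remaining alternatives gave 3. Over all genes the number moved too, from 426 of 16134 in the main fit to 2028 of 16487 without WT mouse 1. All-gene numbers were 543 of 16534 without WT mouse 3, 227 of 16566 without WT mouse 2 and 138 of 16134 with the replicate block.

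Of the other bridging molecules, 8 of 9 were tested, and their median log2 fold change was -0.25. *Apoe* (also picked after its values were seen), which encodes an apolipoprotein that Kupffer cells and hepatocytes both make, was at 19900 to 32000 CPM. *Ptx3* had 0 counts in every library, which allows up to 3 counts, or 0.0462 to 0.0656 CPM.

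Of the 18 other uptake receptors 15 were tested, with a median log2 fold change of -0.04. The highest in CPM, which is not set per length, were *Lrp1*, the receptor that takes up C1q-coated cells with calreticulin, at 1870 ± 691 CPM in WT and 1830 ± 630 CPM in Lpcat3 KOMac cells (SD, n = 3 each), and the integrin chain *Itgb2*, at 875 ± 126 and 846 ± 109 CPM (SD, n = 3 each). Alpha v also pairs with the beta 5 chain, another MFGE8 receptor, and *Itgb5*, singled out after its values were seen, was at 640 to 857 CPM. Per length *Itgb5* exceeded *Itgb3* 180-, 524- and 223-fold in WT mice and 90.5-, 153- and 303-fold in Lpcat3 KOMac mice (two-sided exact permutation test of the ratio, p = 0.4). *Cd300lb*, a phosphatidylserine-binding receptor, was the 1 gene of this list whose genotypes did not overlap, at 128 to 155 CPM in WT and 161 to 163 CPM in Lpcat3 KOMac cells, where 2.29% of all genes were higher without overlap.

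The engulfment list held 15 tested genes with log2 fold changes between -0.21 and 0.18. Its genes of highest CPM (not per length), the GTPase genes *Cdc42* and *Rhoa*, were at 886 ± 54.2 and 843 ± 53.4 CPM in WT and at 838 ± 30.5 and 742 ± 50.7 CPM in Lpcat3 KOMac cells (SD, n = 3 each). *Dock2*, the paralog of *Dock1* that predominates in leukocytes, exceeded it per length by 4.25 ± 0.516 times in WT and 4.13 ± 0.251 times in Lpcat3 KOMac cells (SD, n = 3 each), and *Elmo1* was at 0.376 ± 0.0335 and 0.378 ± 0.00714 times the level of *Elmo2*. These paralogs were also singled out after their values were seen.

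The 15 genes of corpse digestion lay between -0.13 and 0.09, and 4 of them were lower in every Lpcat3 KOMac mouse than in every WT mouse, where 5.2% of all genes were. The lysosomal membrane protein gene *Lamp1* was at 1950 ± 39.8 and 1790 ± 33.6 CPM and the NADPH oxidase subunit gene *Cybb* at 1770 ± 302 and 1630 ± 104 CPM (SD, n = 3 each). The 10 find-me and do-not-eat-me receptors had a median of 0.02, with *Sirpa*, the receptor of the do-not-eat-me protein CD47, at 1310 ± 319 and 1380 ± 221 CPM and *Cd47* itself at 460 ± 50.4 and 436 ± 48.2 CPM (SD, n = 3 each). The 9 nuclear receptor genes and partners that control uptake receptors had a median of -0.11, with *Rxra* at 780 ± 139 and 693 ± 50.8 CPM (SD, n = 3 each). The 7 sheddases and signal brakes had a median of -0.10. *Adam17*, the protease that cleaves MERTK and AXL from the cell surface, was at 369 ± 65.2 and 339 ± 65.3 CPM, and *Adam10* at 487 ± 36.3 and 486 ± 42.8 CPM (SD, n = 3 each).

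Altogether 57 of the 79 genes (72.2%) had negative log2 fold changes, beside 59.9% of all genes tested. With total counts as the only scaling these shares were 44.3% and 35.1%. The median of all genes then moved from -0.04 to 0.06.

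**Figure D5:**
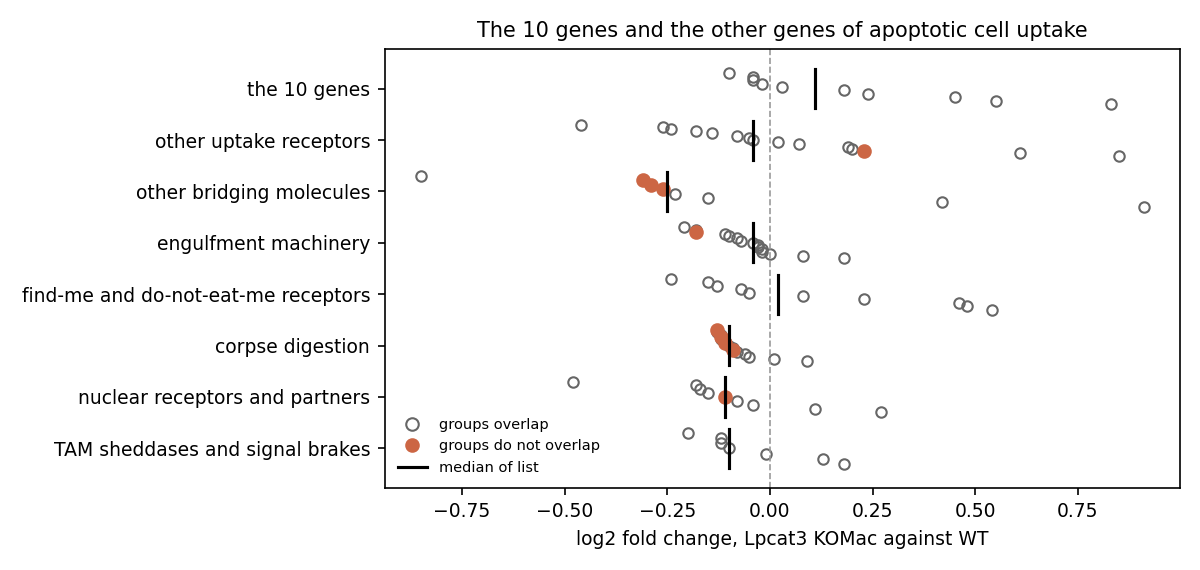
Log2 fold change in Lpcat3 KOMac against WT cells of the 10 genes and of the 79 other tested genes of apoptotic cell uptake, by list, with 1 point per gene (filled where the genotypes do not overlap) and the median of each list as a bar. The 3 filled points of the other bridging molecules are the C1q chains, at -0.31, -0.29 and -0.26.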

How the data were processed

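Liver F4/80-positive cells from 3 WT and 3 Lpcat3 KOMac mice were sequenced after poly-A selection with a kit that does not mark strand, 1 library per mouse. The authors deposited raw read counts per Ensembl gene. The submitters' processing notes name Trimmomatic 0.36, STAR 2.5.2b, featureCounts of Subread 1.5.2 and GRCm38; the handling of multimapping reads is not given in the sources used here. Exonic lengths are from the deposited tables, and symbols from GENCODE M21 (49056 of 49315 identifiers). All members but *Elmo1* have the same start and end there.

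Genotypes were tested on the counts using edgeR 4.0.16 (R 4.3.3) with TMM (filterByExpr with minimum count 10, robust quasi-likelihood test, genotype only) over 16134 genes, Benjamini-Hochberg adjusted, threshold 0.05. All 10 members passed the filter. Each standard error was taken as the size of the log2 fold change divided by the root of its F statistic. Replicates are mice. No library was a copy of another. Single values were tested by two-sided exact permutation over 20 splits. Alternatives used DESeq2 1.42.0, limma-voom (limma 3.58.1), other scalings and filters, a replicate block, a hepatocyte covariate, a length offset and each mouse left out. The fits were tested on simulated data. At these depths counting error is small except for *Tyro3*.

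The members and lists were chosen with earlier results of these data known. Named were all members, list genes with an unadjusted p-value under 0.05 or otherwise the 2 of highest mean CPM per list, and for *Axl*, *Mertk* and *Gas6* the 3 nearest genes in pattern. A gene that this rule names is not reported here.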

Additional observations from a re-analysis of the deposited data

How the results depend on the processing

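Under every alternative run, 0 of the 10 members and 0 of the other uptake genes had an adjusted p-value under 0.05. Every alternative except DESeq2 also called 0 of all genes tested, and so did not call *Lpcat3* either. A count of 0 members in those fits therefore does not set the members apart from other genes. DESeq2 called 15 genes over all genes where edgeR called 0, and *Lpcat3* was among them (log2 fold change -1.55, adjusted p = 0.0028 from DESeq2). With each mouse left out, *Lpcat3* ranged from -1.85 to -1.39.

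The 10 members kept the sign of their log2 fold change in 154 of 168 refits, and *Tyro3*, *Gas6*, *Pros1*, *Mfge8* and *Itgb3* in all of theirs. With total counts alone, *Axl* was at 0.07, *Mertk* at 0.05, *Elmo1* at 0.04, *Lrp1* at 0.04, *Itgb2* at 0.04, *Cdc42* at 0.01, *Cd47* at 0.01 and *Adam10* at 0.09. With the hepatocyte covariate, *Axl* was at 0.03, *Elmo1* at 0.07, *Lrp1* at 0.23, *Itgb2* at 0.03 and *Adam10* at 0.01. *Adam10* was also at 0.01 with DESeq2 and with its size factors, and at 0.00 with at least 10 counts in every library. Leaving out 1 mouse at a time gave ranges of -0.10 to 0.07 for *Axl*, -0.10 to 0.06 for *Mertk*, 0.00 to 0.33 for *Itgav*, -0.19 to 0.10 for *Elmo1*, -0.05 to 0.15 for *Dock1*, -0.31 to 0.21 for *Lrp1*, -0.15 to 0.05 for *Itgb2*, -0.10 to 0.22 for *Sirpa*, -0.16 to 0.03 for *Cd47*, -0.23 to 0.02 for *Cybb*, -0.06 to 0.08 for *Adam10* and -0.24 to 0.04 for *Adam17*. The cause of these sign changes was not tested.

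The labels do not say whether same-numbered mice were handled together. The correlations across genes of their deviations from the group mean were -0.30, -0.60 and 0.36. Their mean was -0.18, beside 0.11 for mice of different numbers. With the replicate block edgeR called 0 genes, with 138 rather than 426 at an unadjusted p-value under 0.05, *Lpcat3* was at -1.59, and the block changed no adjusted call. The 3 C1q genes were at an unadjusted p-value under 0.05 without the block and not with it. Over all genes, the number at an unadjusted p-value under 0.05 was also 1519 with the hepatocyte covariate, 2028 without WT mouse 1, 227 without WT mouse 2, 179 without Lpcat3 KOMac mouse 1, 245 without Lpcat3 KOMac mouse 2, and 1767 without the 2 libraries richest in hepatocyte transcripts, an alternative added after seeing the data. *Tyro3* could not be fitted with at least 10 counts in every library, nor without those 2 libraries.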

Other observations

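Some genes of apoptotic cell uptake, named after their values were seen, varied several-fold between mice of 1 genotype. *Thbs1*, which encodes the bridging molecule thrombospondin 1, measured 2.72, 2.93 and 23.6 CPM in the WT mice and 23.2, 6.19 and 9.6 CPM in the Lpcat3 KOMac mice. *Anxa1*, whose product binds phosphatidylserine, measured 6.66, 2.48 and 9.75 CPM in the WT mice and 17.1, 9.74 and 8.67 CPM in the Lpcat3 KOMac mice, or 0.91 higher on the log2 scale in the fit (standard error 0.54). *Itgax*, an integrin chain of dendritic cells and recruited macrophages, measured 37.8, 20.8 and 111 CPM in the WT mice and 95, 117 and 92.9 CPM in the Lpcat3 KOMac mice. All 3 were lower in WT mouse 1 and WT mouse 2 than in WT mouse 3. The 10 markers of recruited macrophages and monocytes summed to 399, 226 and 641 CPM in WT and 710, 646 and 627 CPM in Lpcat3 KOMac mice, and 8 of them were lowest in WT mouse 2.

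*Pear1*, an engulfment receptor relative also found on endothelial cells and platelets, was likewise named after its values were seen. It measured 6.71, 3.79 and 8.62 CPM in the WT mice and 11.9, 10.7 and 6.52 CPM in the Lpcat3 KOMac mice. It was lowest in WT mouse 2 and highest in Lpcat3 KOMac mice 1 and 2, as were *Mfge8* and *Itgb3*.

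Markers of other cell types were low. The summed levels of 10 T, NK and B cell markers were 17 to 29.5 CPM over the 6 libraries, and those of 6 cholangiocyte markers were 0.319 to 0.765 CPM in WT and 0.999 to 1.2 CPM in Lpcat3 KOMac cells, without overlap. Of all genes tested, 2.29% were higher without overlap. The cholangiocyte markers had at most 23 counts each in a library, 3 of the 6 had enough counts for the test, and 2 were at 0 in some libraries. The 8 neutrophil markers summed to 81.7 to 159 CPM, nearly all of it *Csf3r*, which was at 74.7 to 155 CPM, and 5 of the 6 neutrophil markers tested had positive log2 fold changes (median of the 6, 0.81).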
